A study of Mus musculus with 2 samples.

Results

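Fibroblast growth factors (FGFs), neuregulins and the ligands of the EGF family, with the receptor tyrosine kinases that bind them, were described in the left cerebral cortex of juvenile mice. The members were all protein-coding genes whose symbol is Fgf, Fgfr or Nrg followed by a number, together with Fgfrl1, Egfr, Erbb2, Erbb3, Erbb4, Egf, Tgfa, Hbegf, Btc and Ereg. The choice used no measured value and gave 40 of 22028 protein-coding genes, among 55536 annotated genes in all. Total RNA was sequenced from 1 group of 2 male B6CASTF1/J mice, the first-generation offspring of C57BL/6J and CAST/EiJ, aged 25 days, with 300 ng of RNA in each library. The animals carried no stated mutation, received no stated treatment and are called replicate 2 and replicate 1. With 1 group there was no condition to compare, so levels and the difference between the animals are given, and no test was possible. The left cortex was taken as whole tissue, so fewer cells of a type and less RNA per cell cannot be told apart.

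FGFs are small signalling proteins that mostly leave the cell, bind heparan sulphate and activate receptor tyrosine kinases. A separate branch, Fgf11 to Fgf14, stays inside the cell and binds voltage-gated sodium channels instead of receptors. Neuregulins and the ligands of the EGF family are made as membrane proteins, are often released by proteases, and activate the ErbB receptors, of which EGFR is the founding member. In cortex these systems are known for roles in the growth of astrocytes and oligodendrocytes, in interneuron circuits and in the excitability of axons.

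Expected counts summed to 33263801 in replicate 2 and 30503944 in replicate 1. Levels are in TPM, transcripts relative to all transcripts of a library, which are divided by transcript length, so that genes can be compared with each other. Detection meant a level of at least 1 TPM in each of the animals, which 23 of the 40 members reached (57.5%), against 58.2% of all protein-coding genes. The choroid plexus markers Ttr, Kl, Folr1, Clic6 and Aqp1 stood apart between the libraries, with a sum of 199 TPM in replicate 2 and 22 TPM in replicate 1. All 5 were over 1.5-fold higher in replicate 2, and none was at 0 in either library. The 5 oligodendrocyte markers were all higher in replicate 2, with sums of 944 TPM in replicate 2 and 705 TPM in replicate 1. The 5 immediate early genes were all lower in replicate 2, with sums of 239 TPM in replicate 2 and 408 TPM in replicate 1. The part of these differences in the members' values was not tested. Markers of neurons, astrocytes, microglia and vessels were present in both libraries, with none at 0, and all 5 pan-neuronal and all 4 glutamatergic markers of the labelled cortex were detected.

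Fgf12 and Fgf13, both intracellular FGFs, were the most abundant members. Fgf12, which binds sodium channels and modulates their inactivation, had 141 TPM in replicate 2 and 145 TPM in replicate 1. Its level was above that of 97.5% of protein-coding genes. Fgf13, which also binds microtubules, had 71.2 TPM in replicate 2 and 78.3 TPM in replicate 1. Fgf14, a channel partner at the axon initial segment, had 21.7 TPM in replicate 2 and 23.6 TPM in replicate 1. Fgf11 was the least abundant of the branch, with 6.53 TPM in replicate 2 and 6.56 TPM in replicate 1. Together they held 87.5% of the TPM of all FGF genes in replicate 2 and 87.9% in replicate 1, or 87.7% ± 0.24 (SD, n = 2). The 18 secreted FGFs together held 34.3 TPM in replicate 2 and 34.9 TPM in replicate 1.

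**Figure D1:**
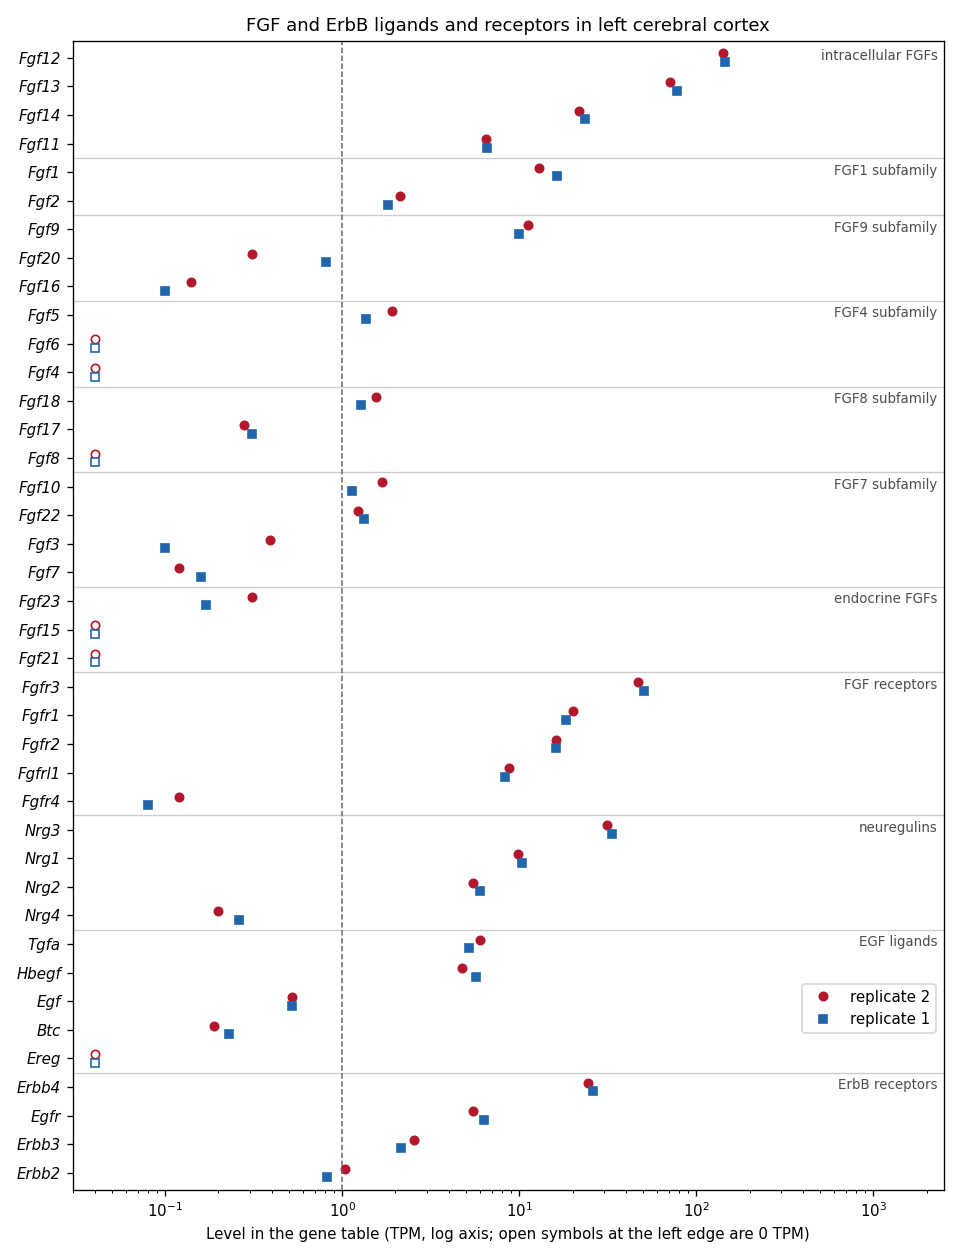
Level of each of the 40 members in TPM on a log axis, by role, with replicate 2 as circles and replicate 1 as squares; open symbols mark 0 TPM and the dashed line marks 1 TPM. Fgf12 stood highest, near 143 TPM in the mean, and 17 members did not reach 1 TPM in both animals.

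Intracellular FGFs differ in their first exon, which sets the N-terminus of the protein. Proteins that begin with the long A-type N-terminus share a start sequence and carry a particle that can block the sodium channel pore, whereas B-type forms lack it. The coding bases of these first exons are shown on mm10 because the members divided by them. Capitals mark the coding bases of the first exon and lower case the 15 bases that follow in the next exon. All of them lie on the minus strand, Fgf12 A at chr16:28444993-28445191, Fgf12 B at chr16:28752834-28752846, Fgf13 A at chrX:59133877-59134063, Fgf14 A at chr14:124192329-124192521 and Fgf14 B at chr14:124676510-124676717.
Fgf12 A: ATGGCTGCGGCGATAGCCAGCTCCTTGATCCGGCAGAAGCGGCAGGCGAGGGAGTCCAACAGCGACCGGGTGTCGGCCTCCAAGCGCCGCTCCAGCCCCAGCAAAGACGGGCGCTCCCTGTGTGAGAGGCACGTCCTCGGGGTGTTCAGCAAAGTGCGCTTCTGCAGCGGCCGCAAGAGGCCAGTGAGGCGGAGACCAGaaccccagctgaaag
Fgf13 A: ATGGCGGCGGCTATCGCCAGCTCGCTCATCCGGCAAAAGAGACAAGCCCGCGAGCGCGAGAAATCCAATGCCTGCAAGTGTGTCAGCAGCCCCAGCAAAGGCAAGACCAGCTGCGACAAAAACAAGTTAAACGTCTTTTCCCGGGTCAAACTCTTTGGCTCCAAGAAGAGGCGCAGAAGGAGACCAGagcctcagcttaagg
Fgf14 A: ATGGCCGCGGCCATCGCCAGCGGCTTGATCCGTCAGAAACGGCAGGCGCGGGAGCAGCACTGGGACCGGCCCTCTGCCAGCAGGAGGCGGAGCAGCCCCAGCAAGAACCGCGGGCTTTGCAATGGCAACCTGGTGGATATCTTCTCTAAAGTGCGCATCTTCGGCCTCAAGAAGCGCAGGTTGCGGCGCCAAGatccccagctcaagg
Fgf12 B: ATGGAGAGCAAAGaaccccagctgaaag
Fgf14 B: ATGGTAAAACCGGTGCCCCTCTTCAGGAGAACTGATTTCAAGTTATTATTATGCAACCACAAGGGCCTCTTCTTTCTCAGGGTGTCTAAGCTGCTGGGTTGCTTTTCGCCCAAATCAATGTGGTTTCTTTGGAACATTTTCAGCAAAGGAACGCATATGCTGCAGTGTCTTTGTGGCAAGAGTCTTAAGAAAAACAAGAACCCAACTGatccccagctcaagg
Over the first 45 coding bases, the A form of Fgf12 matched that of Fgf14 at 38 bases and that of Fgf13 at 35 bases, and Fgf13 matched Fgf14 at 32 bases. The B exon of Fgf12 contributed 13 coding bases, against 208 in the B exon of Fgf14.

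The 3 genes used these starts differently. Form shares are percentages of the TPM of those transcripts that could be assigned to a form, and they were taken from the first transcript table, which came with the gene table, and from the second, a separate estimate for the same libraries. The A form held 89.9% of assigned Fgf13 TPM in the first table, at 91.5% in replicate 2 and 88.3% in replicate 1. It held 60.4% in the second table, where Fgf13-207, a transcript annotated without a coding sequence, took 26.3% of assigned TPM, against 0.88% in the first. Fgf14 was mostly B, at 94.1% in replicate 2 and 93.1% in replicate 1, and 93.6% and 92.3% in the second table. Fgf12 was also mostly B, at 71.6% in replicate 2 and 72.9% in replicate 1, while its A form held 20.2% in replicate 2 and 19.7% in replicate 1. The remaining Fgf12 start, that of Fgf12-202, held 8.16% in replicate 2 and 7.39% in replicate 1. The A form was thus the leading form of Fgf13 and a minor form of Fgf12 and Fgf14 in both animals and both tables.

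A large share of Fgf12 RNA could not be given a start. Fgf12-206, a processed transcript that holds the last part of the gene, took 32.4% of Fgf12 TPM in replicate 2 and 34.3% in replicate 1. The B transcript Fgf12-205 is annotated with a last exon of 182 bases, against 2438 bases for the A transcript Fgf12-201. Whether the annotated ends bear on these shares was not tested. Of Fgf11, Fgf11-202 held 72.6% of TPM in replicate 2 and all of it in replicate 1, and Fgf11-201 held 27.4% in replicate 2 and none in replicate 1. The 7 sodium channel genes listed as partners of these FGFs were all detected, with a median of 97.5 TPM and 0 over 1.5-fold apart. Scn2a, a pore subunit, averaged 144 TPM. Scn2b, a beta subunit, averaged 107 TPM and the pore subunit Scn8a 97.5 TPM, between the levels of Fgf12 and Fgf13.

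Among the secreted FGFs, Fgf1 and Fgf9 carried most of the RNA. Fgf1, which activates every FGF receptor and has no classical signal peptide, had 13.01 TPM in replicate 2 and 16.4 TPM in replicate 1. Its share of secreted FGF TPM was 37.9% in replicate 2 and 47.0% in replicate 1. Fgf9, a neuronal FGF, had 11.2 TPM in replicate 2 and 9.91 TPM in replicate 1, or 32.8% and 28.4% of secreted FGF TPM. Fgf2, the other member of the Fgf1 subfamily, had 2.13 TPM in replicate 2 and 1.81 TPM in replicate 1. Fgf5, known from hair growth, had 1.90 TPM in replicate 2 and 1.37 TPM in replicate 1. Fgf18, of the Fgf8 subfamily, had 1.55 TPM in replicate 2 and 1.28 TPM in replicate 1. Fgf22, a presynaptic organizer in hippocampus, had 1.23 TPM in replicate 2 and 1.33 TPM in replicate 1. Fgf10, a ligand of IIIb receptors, had 1.67 TPM in replicate 2 and 1.13 TPM in replicate 1, from 151 and 91 counts. In all, 15 members share exon bases with another gene, among them Fgf2, with 9.44% of its exon bases under Nudt6, and Fgf22, with 3.65% under Rnf126, both on the opposite strand. These 5 lower genes stood between 1.13 and 2.13 TPM, just above the detection level.

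The leading transcript of Fgf1, Fgf1-201, held 99.1% of its TPM in replicate 2 and 85.2% in replicate 1. The remainder in replicate 1 included 7.13% in Fgf1-206 and 6.33% in Fgf1-205, short fragments that were at 0 in replicate 2. In the second table Fgf1-201 held 64.0% in replicate 2 and 70.3% in replicate 1, and both fragments were at 0. Fgf1 had 1130 counts in replicate 2 and 1122 in replicate 1. Fgf9 was split between Fgf9-201, which encodes the full protein and held 48.6% in replicate 2 and 48.7% in replicate 1, and Fgf9-203. Fgf9-203 has a coding length of 273 bases, against 624 for Fgf9-201, and held 34.3% in replicate 2 and 38.2% in replicate 1. In the second table Fgf9-201 held 52.6% in replicate 2 and 53.3% in replicate 1.

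The remaining 11 of the 22 FGF ligand genes were not detected. Fgf17 had 10 counts in each library, with a 95% Poisson interval of 4.80 to 18.4 counts, which covers counting error only. Fgf20 had 4 counts in replicate 2 and 8 in replicate 1, and 12.04% of its exon bases overlap Micu3 on the opposite strand, a gene that had 45.03 TPM in replicate 2 and 47.8 TPM in replicate 1. Whether the counting used strand is not stated, so these reads cannot be told apart. Fgf3, Fgf7, Fgf16 and Fgf23 had mean counts under 10 and levels of 0.10 to 0.39 TPM. Fgf4, Fgf6, Fgf8, Fgf15 and Fgf21 had no count in either library, as had the EGF ligand Ereg. For these 6 genes a floor of 3 counts corresponded to 0.029 to 0.162 TPM in replicate 2 and to 0.033 to 0.182 TPM in replicate 1, which bounds counting error for reads assigned as in the gene table. Other estimates were higher than the floor for some of them. Fgf8 had 0.33 TPM in replicate 2 and 0.45 TPM in replicate 1 in the second table, and posterior mean TPM, a further estimate in the gene table, of 0.34 and 0.38. The posterior mean TPM of Fgf15 was 0.28 in replicate 2 and 0.32 in replicate 1, and that of Fgf4 0.16 and 0.18, also above their floors. Fgf4, Fgf8 and Fgf15 had no count, so their posterior means do not by themselves show reads of these genes. In the second table Ereg had 0.046 TPM in replicate 2 and 0.052 TPM in replicate 1, against floors of 0.033 and 0.037. The floors are on the scale of the gene table. Levels in the second table were a median of 1.58 times those of the gene table over detected protein-coding genes. Its values are thus not directly comparable with the floors, and those of Ereg do not show a level above them. Of the 3 endocrine FGFs, Fgf15, Fgf21 and Fgf23, which act as hormones with Klotho co-receptors, none was detected.

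FGF receptor RNA was led by Fgfr3. Fgfr3, prominent in astrocytes, had 47.1 TPM in replicate 2 and 50.6 TPM in replicate 1, or 51.1% and 54.2% of the TPM of the 5 receptor genes. Fgfr1, expressed in neurons, had 20.1 TPM in replicate 2 and 18.3 TPM in replicate 1, or 21.8% and 19.6%. Fgfr2, expressed in astrocytes and oligodendrocytes, had 16.2 TPM in both animals. Fgfrl1, which binds FGFs but lacks a kinase domain, had 8.73 TPM in replicate 2 and 8.30 TPM in replicate 1. Fgfr4 was not detected, with 9 counts in replicate 2 and 5 in replicate 1. The order Fgfr3, Fgfr1, Fgfr2, Fgfrl1 was the same in both animals, and neighbours in it did not overlap.

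Alternative exons of the third immunoglobulin-like loop, called IIIb and IIIc, set which FGFs a receptor binds. IIIb forms are typical of epithelia and IIIc forms of mesenchyme and brain. An exon of each kind is shown, IIIc from Fgfr3 and IIIb from Fgfr2, because most assigned RNA of the receptors carried IIIc. Capitals mark the alternative exon and lower case the 15 bases on either side, on mm10. Fgfr3 IIIc lies on the plus strand at chr5:33732117-33732261 and Fgfr2 IIIb on the minus strand at chr7:130199758-130199905.
Fgfr3 IIIc: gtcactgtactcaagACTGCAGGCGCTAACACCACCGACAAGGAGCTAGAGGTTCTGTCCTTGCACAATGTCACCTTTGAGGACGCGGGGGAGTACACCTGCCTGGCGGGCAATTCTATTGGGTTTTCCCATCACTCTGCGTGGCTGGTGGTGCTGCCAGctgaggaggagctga
Fgfr2 IIIb: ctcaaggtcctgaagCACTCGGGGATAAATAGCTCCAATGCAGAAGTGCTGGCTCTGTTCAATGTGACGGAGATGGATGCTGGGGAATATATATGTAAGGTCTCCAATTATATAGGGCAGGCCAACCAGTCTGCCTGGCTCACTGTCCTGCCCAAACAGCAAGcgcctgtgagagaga
The Fgfr3 IIIc exon has 145 bases and the Fgfr2 IIIb exon 148.

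IIIc held 98.9% of assigned Fgfr1 TPM in replicate 2 and 100% in replicate 1, and 98.6% and 100% in the second table. It held 88.1% of assigned Fgfr2 TPM in replicate 2 and 94.2% in replicate 1, and 85.1% and 90.7% in the second table. It held 100% of assigned Fgfr3 TPM in replicate 2 and 99.0% in replicate 1. The second table gave lower Fgfr3 values, 87.0% in replicate 2 and 75.8% in replicate 1, where the IIIb share came largely from Fgfr3-213, a fragment of 668 bases without annotated ends. IIIc was the leading form of all 3 genes in each animal and each table. Fgfr1-208, which holds both exons, was left unassigned. Unassigned transcripts held 30.6% of Fgfr1 TPM in replicate 2 and 21.5% in replicate 1, and 45.4% and 46.5% of Fgfr2 TPM.

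The first immunoglobulin-like loop is present in alpha forms and skipped in beta forms, which bind FGF more tightly. Alpha forms held 89.3% of assigned Fgfr1 TPM in replicate 2 and 84.6% in replicate 1. They held 55.9% of assigned Fgfr2 TPM in replicate 2 and 59.4% in replicate 1. The second table gave 89.0% and 86.5% for Fgfr1, and 57.1% and 55.2% for Fgfr2. Fgfr2 thus had the larger beta share of assigned TPM in each animal and each table. At this loop, unassigned transcripts held 37.1% of Fgfr2 TPM in replicate 2 and 42.7% in replicate 1, and 21.4% and 31.1% in the second table. The Fgfr2 alpha forms include Fgfr2-226, annotated for nonsense-mediated decay, with 12.97% of gene TPM in replicate 2 and 5.75% in replicate 1. Among single transcripts, Fgfr1-202 held 43.2% of gene TPM in replicate 2 and 43.8% in replicate 1, and Fgfr1-201 held 17.8% and 22.1%. Fgfr1-212, a fragment of 453 bases, held none in the first table and 23.2% in replicate 2 and 19.99% in replicate 1 in the second. Fgfr2-207, a beta form, held 27.7% in replicate 2 and 23.2% in replicate 1, and Fgfr2-215, an alpha form, held 20.4% and 27.1%.

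Estimates for single transcripts of Fgfr3 differed between the tables. Fgfr3-201 held 51.4% in replicate 2 and 44.2% in replicate 1 in the first table, against 16.2% and 7.54% in the second. Fgfr3-210, of the same coding length of 2400 bases, held 6.02% in replicate 2 and 10.4% in replicate 1 in the first table, against 28.1% and 26.6% in the second. Fgfr2-217 has 2 exons with 314 bases beyond all other Fgfr2 transcripts, and these overlap Ctbp2 on the same strand. It took 2.37 TPM in replicate 2 and 3.07 TPM in replicate 1. Of its 2425 bases, reads within these 314 cannot be told apart from those of Ctbp2, which had 10.6 and 11.2 TPM. Fgfrl1-201 held 50.3% in replicate 2 and 51.9% in replicate 1, Fgfrl1-202 held 21.2% and 19.9%, and the fragment Fgfrl1-204 held 21.4% and 18.3%. In the second table Fgfrl1-205, a retained intron, held 28.3% in replicate 2 and 1.29% in replicate 1.

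**Figure D2:**
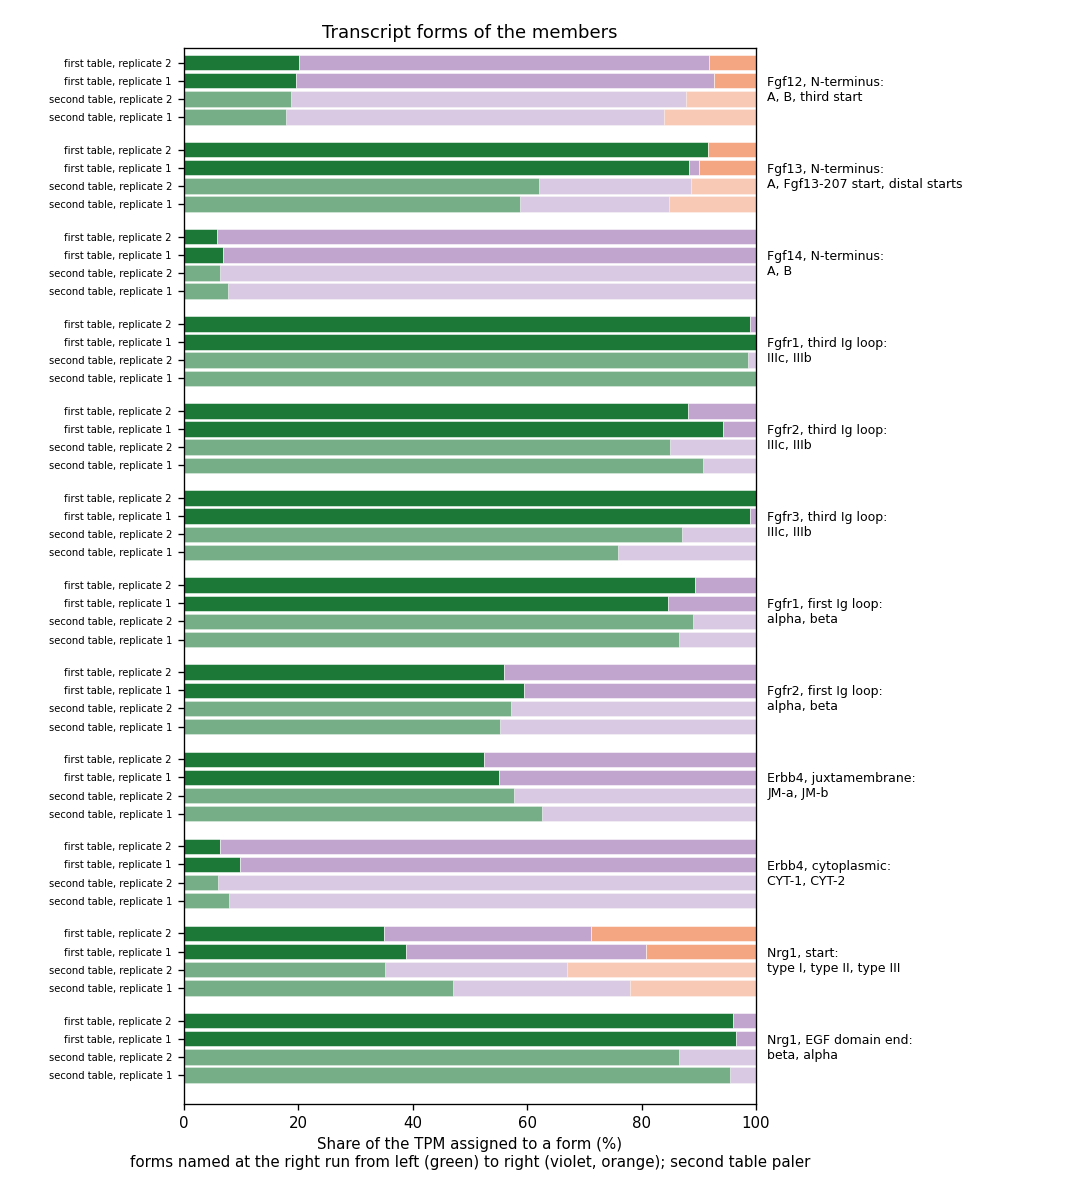
Share of each form in the TPM assigned to a form, in percent, for each gene and alternative region, with replicate 2 above replicate 1 and the second transcript table in paler colours below the first. IIIc led in Fgfr1, Fgfr2 and Fgfr3 in all 4 bars of each gene, and Fgf13 differed between the tables, with 89.9% of A in the first and 60.4% in the second.

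Neuregulin RNA was mostly Nrg3. Nrg3, a neural ligand of ErbB4, had 31.4 TPM in replicate 2 and 33.6 TPM in replicate 1, and held 66.9% of neuregulin TPM in each animal. Nrg1, the best studied ligand of ErbB3 and ErbB4, had 9.79 TPM in replicate 2 and 10.3 TPM in replicate 1. Nrg2, a related ligand expressed in interneurons, had 5.50 TPM in replicate 2 and 5.98 TPM in replicate 1. Nrg4, known from brown fat, was not detected, with 6 counts in replicate 2 and 8 in replicate 1, or 0.20 and 0.26 TPM. Its posterior mean TPM was higher, at 1.14 in replicate 2 and 1.25 in replicate 1, above the detection level but beside these few counts. In the second table, where levels ran higher by a median of 1.58 times, Nrg4 had 1.13 TPM in replicate 2 and 0.46 TPM in replicate 1. Of the exon bases of Nrg4, 6.06% overlap Fbxo22 on the opposite strand, which had 19.3 TPM in replicate 2 and 17.1 TPM in replicate 1. The order was the same in both animals, and all 3 detected neuregulins were apart from each other beyond their range.

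Nrg1 has several first exons, which define its types, and alternative ends of its EGF-like domain, called alpha and beta. Type III carries a cysteine-rich membrane domain and is the form known from myelination by Schwann cells. The beta form binds ErbB receptors more strongly than the alpha form. The alternative exons are shown because they end the domain that contacts the receptor. Capitals mark the exon and lower case the 15 bases on either side, on the minus strand of mm10, beta at chr8:31837670-31837728 and alpha at chr8:31838261-31838328.
Nrg1 beta: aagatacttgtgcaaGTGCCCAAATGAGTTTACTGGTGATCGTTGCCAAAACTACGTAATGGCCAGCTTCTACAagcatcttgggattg
Nrg1 alpha: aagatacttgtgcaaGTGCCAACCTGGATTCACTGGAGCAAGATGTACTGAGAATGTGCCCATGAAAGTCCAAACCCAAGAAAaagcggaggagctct
Beta transcripts held 96.04% of assigned Nrg1 TPM in replicate 2 and 96.4% in replicate 1, and 86.5% and 95.5% in the second table. Nrg1-209, which holds both exons, was left unassigned.

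Nrg1 starts were spread over 3 types. Type I held 34.9% of assigned Nrg1 TPM in replicate 2 and 38.8% in replicate 1. Type II held 36.3% in replicate 2 and 41.9% in replicate 1. Type III held 28.7% in replicate 2 and 19.3% in replicate 1, mostly from Nrg1-204, a retained-intron transcript with 22.3% of gene TPM in replicate 2 and 12.97% in replicate 1. The coding type III transcript Nrg1-211 held 4.81% of gene TPM in replicate 2 and 5.03% in replicate 1. In the second table type I led in both animals, at 35.1% in replicate 2 and 47.0% in replicate 1, whereas type II led in both in the first. The leading single transcripts were Nrg1-218, of type II, with 34.3% in replicate 2 and 33.7% in replicate 1, and Nrg1-203, of type I, with 28.0% and 32.1%.

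Nrg3-201 held 61.6% of Nrg3 TPM in replicate 2 and 57.8% in replicate 1, and 53.5% and 49.3% in the second table. Nrg3-203 held 14.3% in replicate 2 and 17.8% in replicate 1, and 21.3% and 26.7% in the second table. Nrg2-203 held 53.9% of Nrg2 TPM in replicate 2 and 52.0% in replicate 1, and 33.4% and 28.8% in the second table. Nrg2-204, a fragment of 328 bases, held 16.5% in replicate 2 and 23.9% in replicate 1 in the first table and none in the second. Nrg2-202, a fragment of 630 bases, held 19.1% in replicate 2 and 17.9% in replicate 1 in the first table, and 8.77% and 25.5% in the second. In the second table Nrg2-205, annotated for nonsense-mediated decay, held 38.6% in replicate 2 and 21.4% in replicate 1. The processed transcript Nrg2-201 held 19.3% in replicate 2 and 24.3% in replicate 1 there. The tables thus placed Nrg2 RNA on different transcripts.

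Of the 5 EGF ligands, Tgfa and Hbegf were detected. Tgfa, a ligand of EGFR, had 6.04 TPM in replicate 2 and 5.19 TPM in replicate 1. Hbegf, which binds EGFR and ErbB4, had 4.76 TPM in replicate 2 and 5.67 TPM in replicate 1. Tgfa-201 held 84.1% of gene TPM in replicate 2 and 95.4% in replicate 1, and Hbegf-201 held 97.7% and 92.4%. Egf itself was not detected, with 25 counts in replicate 2 and 27 in replicate 1, or 0.52 TPM in each. Btc, betacellulin, had 7 counts in replicate 2 and 13 in replicate 1. Ereg, epiregulin, had none.

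ErbB receptor RNA was led by Erbb4. Erbb4, a neuregulin receptor known from cortical interneurons, had 24.4 TPM in replicate 2 and 26.2 TPM in replicate 1, or 72.9% and 73.9% of the TPM of the 4 receptor genes. Egfr had 5.46 TPM in replicate 2 and 6.30 TPM in replicate 1. Erbb3, whose own kinase is very weak and which is known from the oligodendrocyte lineage, had 2.54 TPM in replicate 2 and 2.14 TPM in replicate 1. Erbb2, a co-receptor with no known ligand, had 1.04 TPM in replicate 2 and 0.82 TPM in replicate 1, from 92 and 79 counts. It was thus below the detection level in replicate 1. Its posterior mean TPM, a further estimate in the gene table, was above that level, at 1.21 in replicate 2 and 1.10 in replicate 1. The second table gave 1.22 TPM in replicate 2 and 1.21 TPM in replicate 1. Levels there were a median of 1.58 times those of the gene table over detected protein-coding genes. Relative to that ratio Erbb2 stood at 0.83, so the values of the second table do not show detection at the level used here. Egfr-201, which encodes the whole receptor, held 62.4% of gene TPM in replicate 2 and 64.4% in replicate 1. Egfr-202, with a coding length of 1965 bases against 3630, held 29.2% in replicate 2 and 35.6% in replicate 1, and 15.5% and 20.8% in the second table. Egfr-204, a processed transcript, held 26.8% in replicate 2 and 13.8% in replicate 1 in the second table, against 8.44% and 0% in the first.

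Erbb4 is spliced at a pair of sites with known consequences. JM-a receptors can be cut beside the membrane by the protease ADAM17 and JM-b receptors cannot, and CYT-1 receptors hold a binding site for PI3 kinase that CYT-2 receptors lack. The alternative exons are shown because they distinguish the Erbb4 forms described next. Capitals mark the alternative exon and lower case the 15 bases on either side, on the minus strand of mm10. JM-a lies at chr1:68290243-68290317, JM-b at chr1:68290439-68290483 and the CYT-1 exon, which CYT-2 skips, at chr1:68043908-68043955.
Erbb4 JM-a: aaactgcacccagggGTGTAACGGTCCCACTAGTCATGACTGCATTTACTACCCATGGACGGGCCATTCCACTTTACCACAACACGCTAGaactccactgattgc
Erbb4 JM-b: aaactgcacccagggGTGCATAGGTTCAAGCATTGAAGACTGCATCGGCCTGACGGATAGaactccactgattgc
Erbb4 CYT-1: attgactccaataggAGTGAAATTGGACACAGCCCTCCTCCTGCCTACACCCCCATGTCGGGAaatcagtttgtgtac
JM-a contributes 75 bases, JM-b 45 and the CYT-1 exon 48, each a multiple of 3, so the reading frame is kept.

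JM-a held 52.4% of assigned Erbb4 TPM in replicate 2 and 55.1% in replicate 1, and 57.8% and 62.6% in the second table. Nearly all of the JM-b share came from Erbb4-205, with 46.7% of gene TPM in replicate 2 and 43.8% in replicate 1. Erbb4-205 is annotated as a fragment of 2196 bases with no end. It stops before the CYT site, so its CYT form cannot be read. Among transcripts that reach the CYT site, CYT-2 held 93.7% in replicate 2 and 90.2% in replicate 1, and 94.0% and 92.0% in the second table. The leading full transcript was Erbb4-202, of JM-a and CYT-2, with 48.3% of gene TPM in replicate 2 and 48.4% in replicate 1. JM-a thus led JM-b by little in the first table and by more in the second, while CYT-1 was the minor form in each animal and each table.

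Across the family, 15 of the 22 detected members with more than 1 annotated transcript had a leading transcript with over 50% of the gene TPM, against 69.5% of all such protein-coding genes. The leading transcript was the same in both tables for 19 of the 22, against 76.6% of such genes. The exceptions were Fgfr2, with Fgfr2-207 leading by the mean of the first table and Fgfr2-215 in the second, Fgfr3, with Fgfr3-201 and Fgfr3-210, and Nrg1, with Nrg1-218 and Nrg1-203. Fgfr2-215 also led in replicate 1 of the first table, with 27.1% against 23.2% for Fgfr2-207. Transcripts not annotated as coding held a median of 4.59% of the TPM of these 22 members in the first table, against 12.1% over all such genes, and 12.03% in the second table, against 14.5%. In the first table Fgf12, at 33.3%, Fgfr2, at 29.2%, Nrg1, at 25.98%, and Fgfr1, at 22.6%, had over 20% of their TPM in such transcripts, as had 36.6% of such genes. Of the 22 members, 8 did so in the second table, against 41.4% of such genes, with Nrg2 at 51.8%, Fgf10 at 29.3%, Fgf13 at 26.4% and Egfr at 22.6% added to these 4. How far members differ from other genes in this share thus depended on the table.

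In order of mean level, the 23 detected members were Fgf12, Fgf13, Fgfr3, Nrg3, Erbb4, Fgf14, Fgfr1, Fgfr2, Fgf1, Fgf9, Nrg1, Fgfrl1, Fgf11, Egfr, Nrg2, Tgfa, Hbegf, Erbb3, Fgf2, Fgf5, Fgf18, Fgf10 and Fgf22. Of the 22 pairs of neighbours in this order, 13 had ranges that were apart. The ranges overlapped between Fgfr2 and Fgf1, Fgf9 and Nrg1, Egfr and Nrg2, Nrg2 and Tgfa, Tgfa and Hbegf, and in every pair from Fgf2 down to Fgf22. Levels in the second table, summed per gene, were a median of 1.58 times those of the gene table over detected protein-coding genes. All protein-coding genes held 79.8% of TPM in replicate 2 and 79.7% in replicate 1 in the second table, against 47.8% and 48.3% in the gene table. Relative to that ratio, the members lay between 0.849 and 1.49 times. None was over 1.5 times above or below it, against 3.9% of such genes above and 1.73% below. The rank of 18 of the 23 moved by at most 1 place.

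**Figure D3:**
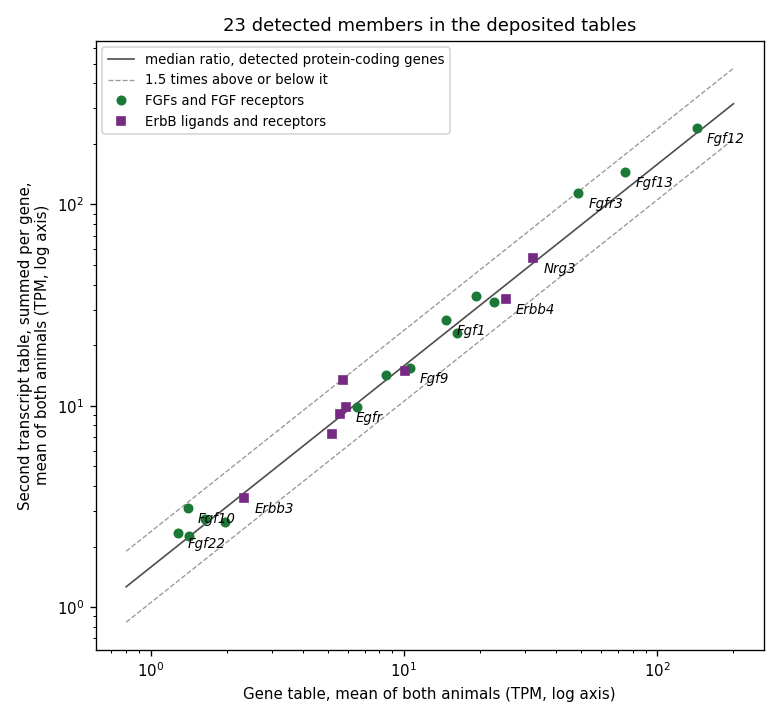
Mean level of the 23 detected members in the gene table (horizontal) and in the second transcript table (vertical), both in TPM on log axes; the solid line is the median ratio of 1.58 over detected protein-coding genes and the dashed lines lie 1.5 times above and below it. All 23 members lie between the dashed lines.

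No member with enough counts was over 1.5-fold apart between the animals on the TPM scale. Each difference is the log2 ratio of replicate 2 to replicate 1 after adding 0.5 to TPM, for genes whose counts averaged 10 or more, and compares 1 animal with 1. None of the 27 members with such counts was over 1.5-fold apart, against 1.53% of 18136 genes higher and 2.22% lower in replicate 2. The median log2 difference was -0.03 for the members and -0.03 for all genes, with 11 members above 0, 15 below and Egf at 0. The SD over the animals was a median of 6.52% of the mean for detected members and 4.80% for detected protein-coding genes. It was 0.17% for Fgfr2 and 27.3% for Fgf10, the extremes.

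The 95% counting interval of TMM-scaled counts lay above 0 for 3 of the 23 detected members, against 13.1% of detected protein-coding genes, and below 0 for 4, against 10.9%. Neither count is given as particular to the members. The values given are on TMM-scaled CPM + 0.5, and the intervals are of the counts with nothing added. Egfr was lower in replicate 2, at -0.23 with an interval of -0.37 to -0.10. Erbb4 was lower at -0.10, with an interval of -0.17 to -0.04, and Fgf13 and Fgfr3 were lower by 0.07 each. Fgf10 was higher in replicate 2 at 0.53, with an interval of 0.22 to 1.00, and was over 1.5-fold higher with DESeq2 size factors (0.61), spike-in scaling (0.75) and in the second table (0.83). Erbb3 was higher at 0.27, with an interval of 0.04 to 0.52, beside oligodendrocyte markers that were higher by a median of 0.43 on the TPM scale, and their part in it was not tested. Fgfr2 was higher at 0.15, with an interval of 0.03 to 0.29, at a TPM difference of 0.00 and of -0.07 in the second table. Scaling to the spike-ins moved the median of all genes to 0.15, against -0.03 for TPM, and gave Fgf13 0.07, Fgfr3 0.08, Erbb4 0.04 and Egfr -0.09, so that the first 3 changed sign, and all 4 stood below the median of all genes. Egfr was at 0.06 in the second table. These intervals cover counting error only, not the spread between animals.

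**Figure D4:**
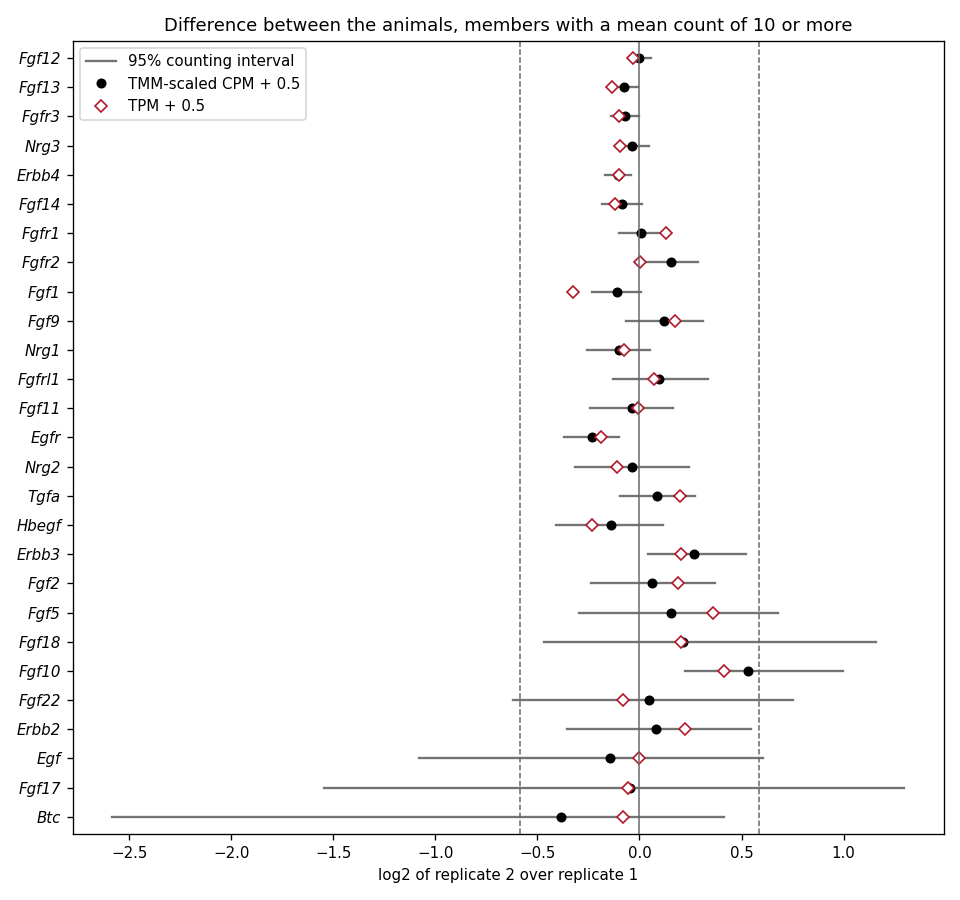
log2 of replicate 2 over replicate 1 for the 27 members with a mean count of 10 or more, ordered by level; black points are TMM-scaled CPM + 0.5, lines are the 95% counting interval of the counts with nothing added, open diamonds are TPM + 0.5, and dashed lines mark 1.5-fold. No diamond passes a dashed line, and the interval of Fgf10, from 0.22 to 1.00, lies above 0.

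Fgf1 differed more by TPM, at -0.32, than by TMM-scaled counts, at -0.11, beside the fragments Fgf1-205 and Fgf1-206 that took TPM in replicate 1 alone, and their part in it was not tested. Other genes of these pathways were grouped in lists by role. Of 17 FGF co-receptors and binding proteins, 16 were detected, led by Ncam1, a cell adhesion molecule, at 123 TPM, the syndecan Sdc3 at 78.0 TPM, the heparan sulphatase Sulf2 at 47.9 TPM and the syndecan Sdc4 at 42.2 TPM. Kl, the Klotho co-receptor of the hormone Fgf23, was the only one over 1.5-fold apart, with 2.43 TPM in replicate 2 and 1.37 TPM in replicate 1. Kl is also 1 of the 5 choroid plexus markers described above. Klb, the co-receptor for Fgf15 and Fgf21, was not detected, with 10 counts in replicate 2 and 7 in replicate 1.

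All 24 genes of the shared intracellular relay were detected, with a median of 39.2 TPM and none over 1.5-fold apart. The kinase Map2k1 averaged 124 TPM, the GTPase Hras 115 TPM and the adaptor Shc3 99.8 TPM. Of 16 feedback inhibitors and FGF target genes, 15 were detected and none was over 1.5-fold apart. Spred1, an inhibitor of the Ras pathway, averaged 76.8 TPM, and its relatives Spred2 and Spry2 averaged 49.3 and 47.7 TPM. Dusp6, a phosphatase induced by FGF signalling, had 47.5 TPM in replicate 2 and 63.0 TPM in replicate 1. Etv4, a transcription factor induced by FGF signalling, ran the other way, with 7.91 TPM in replicate 2 and 5.61 TPM in replicate 1.

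Of 8 genes listed as proteases that act on ErbB ligands or receptors, or as their partners and regulators, 7 were detected. Bace1, which cuts neuregulins, averaged 39.9 TPM, and Ncstn and Adam10 averaged 30.8 and 30.2 TPM. Adam17, the protease of JM-a ErbB4, had 7.86 TPM in replicate 2 and 6.93 TPM in replicate 1. Bace2 was over 1.5-fold lower in replicate 2, with 1.38 TPM in replicate 2 and 2.96 TPM in replicate 1, from 101 and 136 counts, but on TMM-scaled counts its log2 difference was -0.49, short of 1.5-fold. Of 5 other proteins with an EGF-like domain, Cspg5, a brain proteoglycan, averaged 171 TPM, more than any member, and Tmeff1 averaged 50.8 TPM and Tmeff2 20.95 TPM. Epgn and Areg were not detected.

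Many detected members were long genes. Their median length on mm10 was 80.5 kb, against 16.1 kb for the 17 not detected, 25.9 kb for detected protein-coding genes and 9.11 kb for those not detected. Of the 23, 7 spanned over 500 kb, as did 208 of 12830 detected protein-coding genes. Fgf12 spans chr16:28160098-28753068, Fgf13 chrX:59062145-59568071 and Fgf14 chr14:123977907-124677127. Nrg3 spans chr14:38368952-39473088, Nrg1 chr8:31814551-32884029 and Erbb4 chr1:68032186-69108059. Fgfr2 is the other 1 of the 7, and without Fgfr2-217 it spans 103.8 kb. Several members that were not detected lie beside each other, Fgf3, Fgf4 and Fgf15 on chromosome 7 with gaps of 2.93 and 31.3 kb, Fgf6 and Fgf23 on chromosome 6 with a gap of 44.7 kb, and Ereg and Btc on chromosome 5 with a gap of 264 kb.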

How the data were processed

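Total RNA of left cortex from 2 mice was analysed. Both libraries carry the same donor entry in the labels, so their separate origin rests on the words biological replicate and the biobank numbers, and every SD with n = 2 rests on it. Expected counts and TPM were deposited by the authors per gene and per transcript, per the file headers, and the file lists name mm10 and GENCODE M21; a further transcript table holds estimated counts and TPM from a separate program. The aligner and the versions of the programs: not given in the sources used here. The 26248 rows that name no gene, with 10 counts in replicate 2 and 7 in replicate 1 (3.0e-05% and 2.3e-05% of counts), were left out. Protein-coding genes held 47.8% and 48.3% of TPM in the gene table and 79.8% and 79.7% in the second table. The count of the libraries differed by more than sampling noise, with a chi-square of 5.56 per degree of freedom.

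Members were matched by symbol in the second transcript table and joined by gene identifier. The members, the lists and the alternatives were chosen with earlier results of these data known. Named are members detected in both animals, other members with a mean count of at least 10, transcripts with 20% or more of the TPM of a member with a mean of 5 TPM or more, and of each list the 4 highest genes and those over 1.5-fold apart; the chosen exceptions, named after their values were seen, are the remaining members, transcripts that bear on a form, Klb, Etv4, Adam17, Epgn and Areg. A transcript was given a form by an exon, splice site or exon junction that GENCODE M21 annotates. Sequences are coding bases of GENCODE M21 transcripts. Some genes and sequences that these rules would name are not reported here. Counts were rounded and scaled by TMM (edgeR 4.0.16) or DESeq2 1.42.0 size factors in R 4.3.3; intervals are exact binomial at 95%. Only the log2 difference and the counting interval were tested on simulated counts. These were Poisson counts, without the further spread that the libraries showed. Python 3.11.15, pandas 2.3.3 and scipy 1.17.1 were used.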

Additional observations from a re-analysis of the deposited data

How the results depend on the processing

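The family shares moved by more than the SD between the animals under every setting named here, except that of Fgfr1 from posterior mean TPM. The share of intracellular FGFs among FGF TPM, 87.7%, was 88.2% in the second transcript table, 85.9% from posterior mean TPM and 84.1% from counts not divided by length. For Nrg3 among neuregulins, 66.9%, these were 65.0%, 62.8% and 72.2%. For Erbb4 among ErbB receptors, 73.4%, they were 69.9%, 71.2% and 74.9%. For Fgfr1 among FGF receptors, 20.7%, they were 18.9%, 21.8% and 22.4%. The number of members over 1.5-fold apart, 0, was 1 with no count filter (Fgf20), 2 with DESeq2 size factors and 2 with spike-in scaling (Fgf10 and Btc), and 2 in the second table (Fgf10 and Egf). Spike-in scaling set the median log2 difference of all genes at 0.15 and that of the members at 0.11, so that 24 of 27 members stood above 0. Detection counts stayed between 18, at 2 TPM, and 25, and leading transcripts over 50% between 15 and 16. No paired analysis was possible because the labels give 1 group. Shares of 27 forms were also taken from the second table, an alternative added after seeing the data, and 14 moved by more than their SD. The log2 differences of Fgf1, Fgfr1 and Fgfr2 moved between TPM and TMM-scaled counts by more than 50% of the width of their counting intervals. Depth limits the genes with few counts: Fgf18, at 33 counts in replicate 2 and 24 in replicate 1, had an interval of -0.47 to 1.16 for its difference.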
